A study of Mus musculus with 4 samples.

Results

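The IGF axis is represented here by 10 genes: insulin-like growth factor 1 (Igf1), its partner in serum Igfals, the growth hormone receptor Ghr, and the IGF binding proteins Igfbp1 to Igfbp7. They were chosen by name, as every probe set whose single gene symbol in the array's annotation is one of these. All 10 were found, on 24 of the 45101 probe sets of the array. The brightest probe set by mean log2 signal over the 4 arrays stands for a gene, and the table holds 18193 genes in all.

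Total RNA of whole liver slices, 1 from each of 4 males, was hybridised to Affymetrix expression arrays, in a series on nonalcoholic fatty liver disease. All mice were 9 months old, ate chow and received no intervention. AB6F1 males (n = 2) were born to AJ dams and sired by B6 males, and B6AF1 males (n = 2) are the reciprocal hybrid, with B6 dams and AJ sires. The hybrids carry the same pair of parental sets of autosomes, each received from the opposite parent. They differ by design in the strain of the dam that bore them, and in the origin of the X and Y chromosomes, of the mitochondria and of imprinted alleles. The comparison is between the 2 directions of the cross. The mice are numbered as biological replicates, and each cross is 2 animals, so every difference below rests on that spread. The source numbers of the samples run in a separate stretch for each cross. What those numbers record is not stated, so a difference in handling, if there was one, and the cross cannot be told apart.

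Growth hormone from the pituitary binds GHR on hepatocytes and, through JAK2 and STAT5B, drives transcription of Igf1 and Igfals in liver, the main source of circulating IGF-I. Most circulating IGF-I travels in a ternary complex of IGF-I, the acid-labile subunit encoded by Igfals, and IGFBP3 or IGFBP5. The other binding proteins hold IGFs in smaller complexes and govern how much ligand reaches the IGF-I receptor. IGFBP1 and IGFBP2 respond to nutrition: insulin represses Igfbp1, and leptin induces Igfbp2 in mouse liver.

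Every array had the same trimmed mean signal of 500.0, and Pearson correlations of log2 signal across tested genes, which are not independent replicates, lay between 0.961 and 0.975 for the 6 pairs. Hepatocyte markers were bright on all 4 arrays: Alb, which encodes albumin, read 40787.9 and 38514.3 in AB6F1, against 40357.2 and 48624.7 in B6AF1. Signals are in the linear units of the MAS5 algorithm and compare arrays within a probe set. They do not rank one gene against another. Differences are log2 of AB6F1 minus B6AF1, tested with limma over 11748 genes above a mean signal of 60.9, with Benjamini-Hochberg adjustment. A gene is said to have risen or fallen only where the adjusted p is below 0.05, which was so for 0.213% of the genes tested. With 2 arrays against 2, an exact permutation test of a single gene could not give a p below 0.333, so no such test is reported.

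Igfbp2 carries the clearest difference, and 2 further members are of interest for their regulation, so the promoters of these 3 genes are shown: Igfbp2, Igfbp1 (the classical insulin-repressed member) and Igfals (a growth hormone target). RefSeq promoter sequences of mouse build GRCm38.p6 matched all 10 genes, with 14 annotated starts in all. Each window holds the 250 bases before the start and the 50 after it, on the strand of the gene, and capitals mark matches to the motifs searched. The Igfbp2 window is chr1:72824230-72824529 (+ strand), the first of 2 starts. The Igfbp1 window is chr11:7197537-7197836 (+ strand), the only start. The Igfals window is chr17:24877981-24878280 (+ strand), the second of 3 starts, shown because its STAT5 match lies closer to the start than that of the first.
Igfbp2: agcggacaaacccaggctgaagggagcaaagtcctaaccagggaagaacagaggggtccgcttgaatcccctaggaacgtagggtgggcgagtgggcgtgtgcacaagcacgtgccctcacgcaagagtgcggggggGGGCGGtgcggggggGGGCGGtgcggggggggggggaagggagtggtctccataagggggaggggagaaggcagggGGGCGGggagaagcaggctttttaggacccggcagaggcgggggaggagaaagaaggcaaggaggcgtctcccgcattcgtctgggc
Igfbp1: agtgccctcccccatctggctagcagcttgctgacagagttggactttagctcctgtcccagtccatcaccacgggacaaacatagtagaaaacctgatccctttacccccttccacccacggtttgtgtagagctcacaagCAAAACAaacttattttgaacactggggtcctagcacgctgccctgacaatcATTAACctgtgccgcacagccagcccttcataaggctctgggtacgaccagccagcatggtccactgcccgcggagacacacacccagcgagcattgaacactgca
Igfals: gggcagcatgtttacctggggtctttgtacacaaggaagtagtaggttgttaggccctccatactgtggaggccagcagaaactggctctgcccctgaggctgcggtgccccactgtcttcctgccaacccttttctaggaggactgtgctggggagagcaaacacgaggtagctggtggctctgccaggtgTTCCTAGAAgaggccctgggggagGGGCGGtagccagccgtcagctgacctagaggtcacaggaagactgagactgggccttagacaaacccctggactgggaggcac
The motifs were searched on both strands: GGGCGG (the Sp1 GC box), TATAAA (the TATA box), CCAAT (the CCAAT box), TTCNNNGAA (the STAT5 site), CAAAACA (the core of the FOXO insulin response element) and GTTAAT (a partial HNF1 site). The Igfbp2 window held 3 GC boxes and no TATAAA, with 67.0% G and C against a median of 52.7% over all promoters in the table. Its GC boxes begin at 113, 98 and 37 bases before the start. GGGCGG occurs in 35.7% of all 32851 promoter windows of this length. The Igfbp1 window held CAAAACA at 108 bases before the start and the partial HNF1 site, read on the other strand, at 56 bases before it; these motifs occur in 6.3% and 7.1% of windows. The Igfals window held the STAT5 motif as TTCCTAGAA at 58 bases before the start, and a GC box. TTCNNNGAA occurs in 8.3% of all windows and in neither the Igf1 window nor the 2 Ghr windows. A match is a run of letters, not a site shown to be used. The sequence is that of the C57BL/6J reference, and the AJ allele, of which each hybrid has a copy, was not analysed here.

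In AB6F1 livers Igfbp2 fell to 24.5% of its B6AF1 level, the one member of the 10 that passed the test. The other 9 did not pass. Igf1, Igfals and Ghr read 80.0%, 81.8% and 81.5% of their B6AF1 level with arrays that did not overlap, Igfbp6 read 2.26 times as high, and Igfbp1 was high in a single AB6F1 mouse. The median log2 difference of the 10 genes was 0.06, with 5 above and 5 below 0, beside a median of 0.02 over all genes tested. For 6 members the 2 crosses were separate on the arrays, 4 lower and 2 higher in AB6F1. The same held for 41.2% of all genes tested, with 18.7% lower and 22.5% higher. At an unadjusted p below 0.05 there were 3 members lower (Igf1, Ghr and Igfbp2) and 1 higher (Igfbp6), against 9.72% of all genes tested, 3.88% lower and 5.84% higher.

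**Figure D1:**
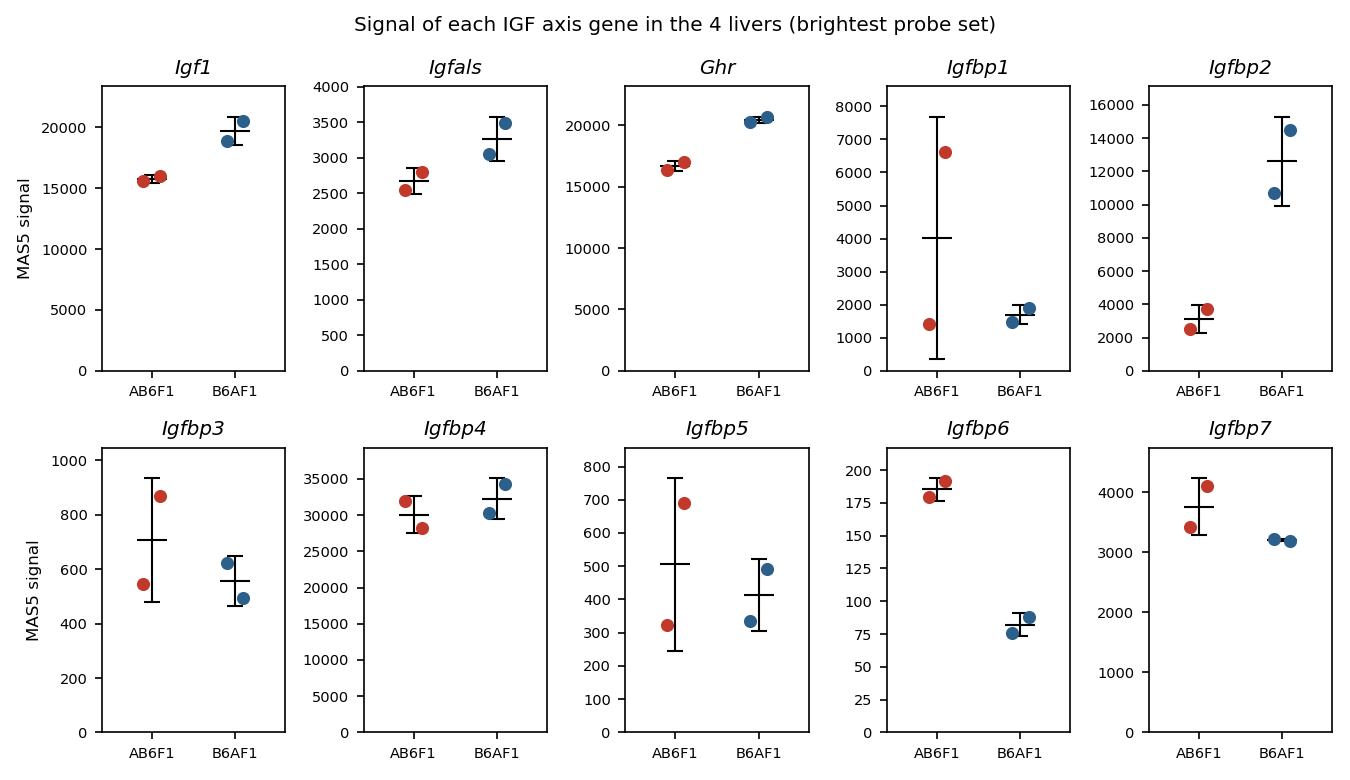
MAS5 signal (linear axis from 0, a separate scale for each gene) of the brightest probe set of each of the 10 genes, with AB6F1 mice in red on the left and B6AF1 mice in blue on the right. Points are mice, the wide bar is the mean and whiskers are the SD (n = 2). Igfbp2 is the gene whose groups lie farthest apart in proportion, at 2533.0 and 3704.8 in AB6F1 against 10726.1 and 14518.0 in B6AF1.

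The ligand Igf1, the growth factor itself, was read by 4 probe sets. The brightest gave 15542.0 and 15978.3 in AB6F1, against 18891.0 and 20527.7 in B6AF1. Both AB6F1 mice lay below both B6AF1 mice, at 80.0% of the B6AF1 level, and the mice of a cross differed from each other by no more than 1.09 times. The log2 difference was -0.32 ± 0.11 (SE, n = 2 each), which did not pass (limma adjusted p = 0.437; unadjusted p = 0.025). The other 3 Igf1 probe sets gave -0.28, -0.23 and -0.07, all on the same side, and the arrays overlapped on the last of these.

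Igfals encodes the acid-labile subunit that stabilises the ternary complex, and its single probe set behaved much like that of Igf1. Its signal was 2542.0 and 2796.7 in AB6F1, against 3045.8 and 3488.2 in B6AF1, without overlap. The log2 difference was -0.29 ± 0.13 (SE; limma adjusted p = 0.532), with a 95% interval from -0.60 to 0.02.

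Ghr, the receptor through which growth hormone acts on the liver, gave 16372.8 and 16991.9 in AB6F1, against 20281.6 and 20635.1 in B6AF1. The crosses did not overlap, and the mice within a cross lay within 1.04 times of each other. The log2 difference was -0.29 ± 0.11 (SE; limma adjusted p = 0.463). The 2 other Ghr probe sets gave -0.38 and -0.60, and on the dimmer of them the signal was 1879.0 and 2661.4 in AB6F1, against 2903.2 and 3972.5 in B6AF1. None of the 3 probe sets overlapped between the crosses. The mouse gene also yields a shorter transcript for the circulating growth hormone binding protein. Which transcript each probe set reads was not analysed here.

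These 3 liver transcripts were set beside 10 hepatocyte markers. Of the markers, 9 had a difference below 0, beside 5464 of all 11748 genes tested. The markers had a median of -0.12, with none past the test (0 at an unadjusted p below 0.05). Their summed signal was 363615.8 and 339408.4 in AB6F1, against 363172.7 and 409401.2 in B6AF1, so that AB6F1 replicate 1 lay above B6AF1 replicate 1. In whole tissue, fewer cells of a type and less RNA per cell cannot be told apart, and the part of hepatocyte content in these differences was not tested. Centring each array on its median moved the median of all genes to -0.11 from 0.02, and Igf1, Igfals and Ghr then stood at -0.46, -0.43 and -0.43. Quantile normalization gave -0.26, -0.27 and -0.23, so that the sign was the same under each scaling.

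Igfbp2 encodes a binding protein that hepatocytes secrete in abundance and that carries IGF-I and IGF-II in binary complexes. Its signal was 2533.0 and 3704.8 in AB6F1, against 10726.1 and 14518.0 in B6AF1. The lowest B6AF1 mouse stood well above the highest AB6F1 mouse, and the gap between the crosses was much wider than the 1.46 and 1.35 times by which the mice differed within AB6F1 and within B6AF1. The means were 3118.9 ± 828.6 in AB6F1 and 12622.0 ± 2681.3 in B6AF1 (SD, n = 2 each).

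The log2 difference of Igfbp2 was -2.03 ± 0.22 (SE), a 4.07-fold lower signal, with a 95% interval from -2.54 to -1.51 and a limma adjusted p of 0.024. By its p-value Igfbp2 ranked 17 among the 11748 genes tested. The array carries a single probe set named for Igfbp2, of the suffix _a_at that marks probes shared by transcripts of 1 gene, so no second probe set was at hand to compare. The size held throughout: the log2 difference ran from -2.30 without AB6F1 replicate 2 to -1.75 without AB6F1 replicate 1. The call was lost without B6AF1 replicate 1 (-2.24, limma adjusted p = 0.17), without B6AF1 replicate 2 (-1.81, limma adjusted p = 0.413) and when the variance ignored its trend with intensity (limma adjusted p = 0.365). It was kept under the other alternatives, with limma adjusted p from 0.000359 to 0.0372.

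Igfbp2 also had the widest range of log2 signal over the 4 arrays among the 10 genes, at 2.52. The 3 tested genes whose centred log2 signals lay closest to it, by root mean square difference over the 4 arrays, were Dph2 (0.15), Cyp7b1 (0.178) and Sult5a1 (0.182). Cyp7b1, the oxysterol 7-alpha-hydroxylase, read 4140.9 and 4560.5 in AB6F1, against 14858.8 and 17345.9 in B6AF1. Sult5a1, a sulfotransferase, read 266.3 and 294.3 in AB6F1, against 1098.4 and 1191.2 in B6AF1. Both fell, with limma adjusted p of 0.00679 and 0.00829. Dph2, an enzyme of diphthamide synthesis, was near the floor in AB6F1 at 22 and 37.7, against 124.3 and 139.9 in B6AF1, and did not pass (limma adjusted p = 0.338). Its AB6F1 signals lay under the filter and it was tested because of its B6AF1 signals, so its place as the nearest is not interpretable. A likeness over 4 arrays that split into groups of 2 mainly reflects the size of the difference between the crosses.

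**Figure D2:**
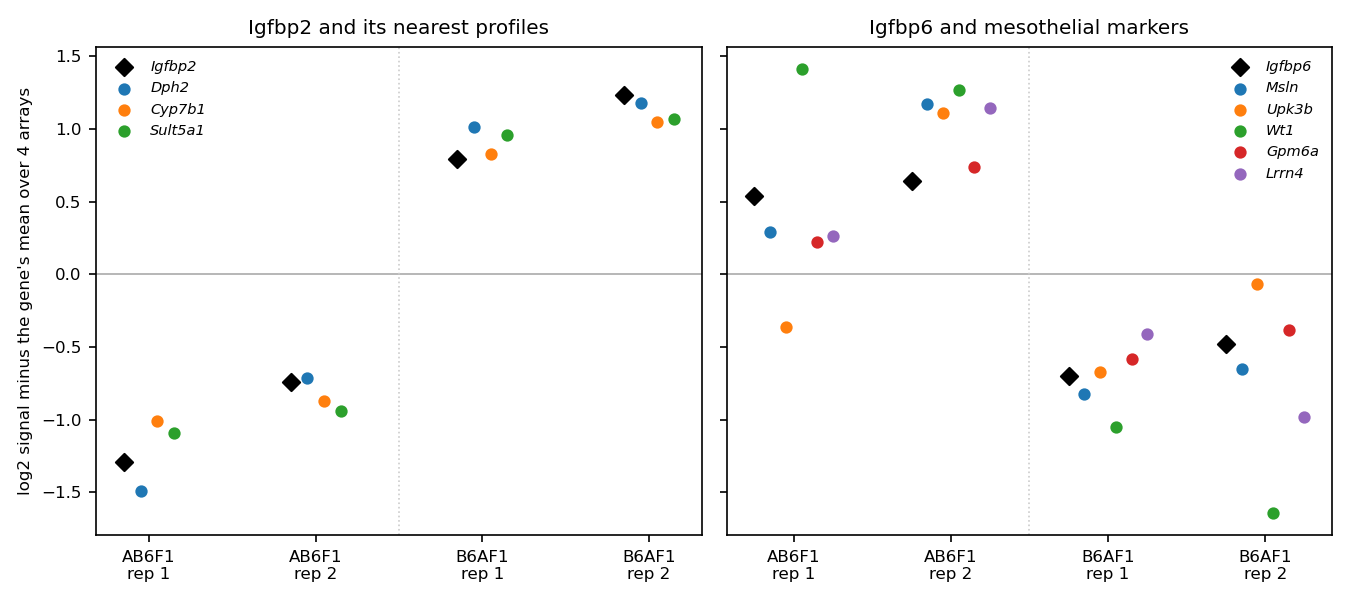
Log2 signal minus the mean of each gene over the 4 arrays, by mouse, with AB6F1 on the left of each panel and B6AF1 on the right. The left panel shows Igfbp2 (diamonds) with the 3 tested genes nearest to it, and the right panel Igfbp6 (diamonds) with the 5 mesothelial markers. Dph2 in AB6F1, Msln and Wt1 in B6AF1, and 1 B6AF1 array of Lrrn4 lay under the filter signal of 60.9. Igfbp2 lies at -1.29 and -0.74 in AB6F1 and at 0.79 and 1.23 in B6AF1, and Igfbp6 at 0.54 and 0.64 in AB6F1 and at -0.70 and -0.48 in B6AF1.

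Igfbp1, the rapidly regulated binding protein that insulin represses through FOXO1, differed between mice more than between crosses. It read 1425.5 and 6615.8 in AB6F1, against 1492.2 and 1903.8 in B6AF1. AB6F1 replicate 2 alone was high, 4.64 times the other AB6F1 mouse, and AB6F1 replicate 1 was the lowest of all 4. The log2 difference of 0.87 ± 0.61 (SE) did not pass (limma adjusted p = 0.688) and turned to -0.24 without AB6F1 replicate 2. Without AB6F1 replicate 1 it was 1.97 with a limma adjusted p of 0.00174, a value that rests on a single AB6F1 array whose spread is assumed to be that of B6AF1.

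Other fasting and FOXO1 target genes were examined beside Igfbp1, since no source used here states whether the mice were fasted. Of 8 such genes, all tested, none passed (0 at an unadjusted p below 0.05), with 6 below 0 and a median of -0.32. AB6F1 replicate 1, in which Igfbp1 was not high, was the lowest of the 4 mice for Tat, G6pc, Pdk4, Pck1 and Irs2. How often this mouse was lowest over all genes was not counted, so nothing is read from this. For Tat, Pck1, Irs2 and Ppargc1a both AB6F1 mice lay below both B6AF1 mice, as for 18.7% of all genes tested. AB6F1 replicate 1 was not the lowest for Ppargc1a or Txnip. It was the highest for Sesn1, at 1084.8 and 862.7 in AB6F1 and 938.4 and 648.2 in B6AF1. Tat, the tyrosine aminotransferase that glucocorticoids and glucagon induce, read 9910.8 and 19077.5 in AB6F1, against 21430.8 and 20151.1 in B6AF1. G6pc, the glucose-6-phosphatase of gluconeogenesis, read 3897.4 and 7250.5 in AB6F1, against 7079.9 and 6828.7 in B6AF1. Pck1, which encodes the gluconeogenic PEPCK, was steadier, at 11498.2 and 12704.8 in AB6F1 and 14372.7 and 13253.1 in B6AF1. Irs2 and Ppargc1a, an insulin receptor substrate and a coactivator of the fasting response, gave log2 differences of -0.81 ± 0.37 and -0.26 ± 0.17 (SE), with limma adjusted p of 0.529 and 0.672. The log2 difference of Tat was -0.6 over all 4 mice. It moved to -1.07 when AB6F1 replicate 2 was dropped, and to -0.12 when AB6F1 replicate 1 was dropped instead. Both shifted values again have a single AB6F1 array behind them.

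Igfbp3, the main serum carrier of IGF-I, which rodent liver makes largely outside hepatocytes, showed no separation of the crosses. It read 545.4 and 868.1 in AB6F1, against 621.8 and 492.5 in B6AF1, with AB6F1 replicate 2 highest. The log2 difference was 0.31 ± 0.25 (SE; limma adjusted p = 0.73), it was -0.02 without that mouse, and the second probe set gave -0.01. In the RefSeq gene table Igfbp3 is the neighbour of Igfbp1. AB6F1 replicate 2 was the highest array for both, and for Igfbp5, Igfbp6 and Igfbp7 as well. For Igfbp6 and Igfbp7 both AB6F1 mice lay above both B6AF1 mice. A link between the neighbouring genes was not tested.

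Igfbp4, a binding protein that hepatocytes express strongly and that the protease PAPP-A cleaves, was read by 6 probe sets. The brightest gave 31869.9 and 28220.1 in AB6F1, against 30278.0 and 34280.1 in B6AF1, and the arrays overlapped. Its log2 difference was -0.10 ± 0.13 (SE; limma adjusted p = 0.826), with a 95% interval from -0.41 to 0.20, and the other 5 probe sets ran from -0.29 to 0.00. The crosses overlapped on 5 of the 6 probe sets, and on the other both AB6F1 mice were lower.

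Igfbp5, which can also enter the ternary complex, read 322.4 and 689.4 in AB6F1, against 336.3 and 491.1 in B6AF1, with wide overlap. Its log2 difference was 0.21 ± 0.37 (SE; limma adjusted p = 0.877), the dimmer probe set gave -0.25, and the sign turned to -0.33 without AB6F1 replicate 2 and to -0.06 without B6AF1 replicate 1. Igfbp5 is the neighbour of Igfbp2 in the RefSeq gene table. The 4-fold separation seen for Igfbp2 was not seen in Igfbp5, although that difference between the genes was not tested.

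Igfbp6, a binding protein that prefers IGF-II over IGF-I, was the member with the largest positive difference. It read 179.3 and 191.4 in AB6F1, against 76.0 and 88.3 in B6AF1. The mice agreed closely within each cross, the crosses did not overlap, and the B6AF1 signals lay just above the filter signal of 60.9. The log2 difference of 1.18 ± 0.35 (SE), with a 95% interval from 0.36 to 2.0, did not pass (limma adjusted p = 0.371; unadjusted p = 0.0114). After 16 was added to every signal, which damps dim probe sets, it was 1.04.

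Markers of the mesothelium, the covering layer of the liver, were read beside Igfbp6, and none of the 4 tested of 5 passed (3 at an unadjusted p below 0.05). They are dim: both B6AF1 arrays of Msln and 1 of Lrrn4 lay under the filter signal, and these genes were tested because of their AB6F1 signals, so the count is not read as support. The log2 differences were 1.46 for Msln, 1.40 for Lrrn4, 0.97 for Gpm6a and 0.75 for Upk3b, and the crosses overlapped for Upk3b, at 124.5 and 344.7 in AB6F1 and 100.1 and 151.8 in B6AF1. Msln, which encodes mesothelin, read 101.6 and 186.7 in AB6F1, against 47.1 and 53.0 in B6AF1. Wt1, a mesothelial transcription factor, was below the filter, at 94.6 and 85.6 in AB6F1 and 17.2 and 11.4 in B6AF1. The summed signal of the 5 markers was 608.0 and 1078.4 in AB6F1, against 335.4 and 376.9 in B6AF1. That sum holds the same dim genes, so it is not read as support either. Markers of stellate cells and fibroblasts had a median of 0.64, with 8 of 10 above 0, beside 6284 of all 11748 genes tested. The collagens Col3a1 (1.81 ± 0.16, SE) and Col1a2 (1.37 ± 0.17) passed the test (limma adjusted p = 0.00931 and 0.0402), beside 0.213% of all genes. The list was not uniform: Des, Hgf and Dcn gave -0.22, -0.04 and 0.03, and the crosses overlapped for each. The summed signal of the 10 markers was 14244.2 and 17281.1 in AB6F1, against 11004.9 and 10431.3 in B6AF1. The part of these cells in the Igfbp6 difference was not tested.

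Igfbp7, a secreted protein of vascular cells that binds IGFs weakly, read 3424.0 and 4096.3 in AB6F1, against 3220.5 and 3192.7 in B6AF1. The crosses did not overlap, but the lower AB6F1 mouse was close to the B6AF1 mice. The log2 difference was 0.22 ± 0.13 (SE; limma adjusted p = 0.634), and the 2 dim probe sets pointed the other way, at -0.13 and -0.35. Endothelial markers had a median of 0.13 over 9 tested of 10, with 5 above and 4 below 0. None passed the test (2 higher at an unadjusted p below 0.05, beside 5.84% of all genes tested). Without overlap 3 lay higher in AB6F1 and 0 lower, beside 22.5% and 18.7% of all genes tested. The summed signal of the 10 markers overlapped at 4617.2 and 4264.7 in AB6F1 and 3678.2 and 4877.5 in B6AF1. Clec4g gave 1702.8 and 1540.5 of it in AB6F1, and 1541.8 and 2030.5 in B6AF1.

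**Figure D3:**
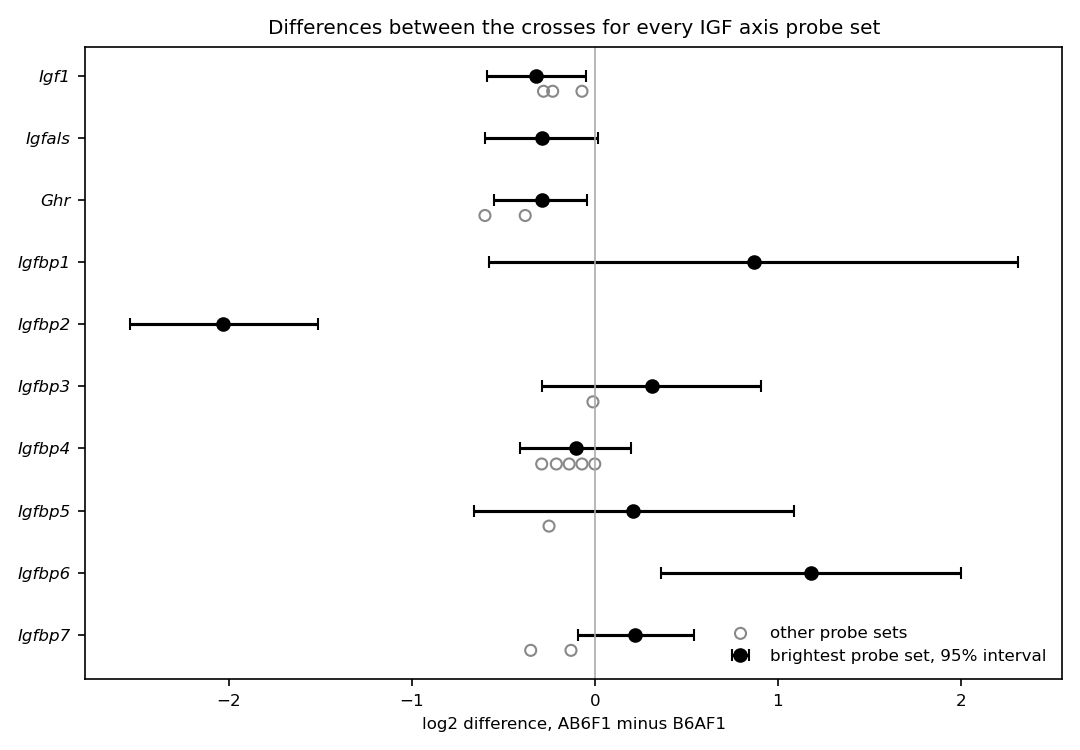
Log2 difference, AB6F1 minus B6AF1, for all 24 probe sets of the 10 genes. Filled points are the brightest probe set of a gene with its 95% interval from limma, and open circles are the other probe sets. Igfbp2 lies at -2.03, Igf1, Igfals and Ghr lie between -0.32 and -0.29, and the open circles of Igfbp3, Igfbp5 and Igfbp7 lie at or below 0.

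Signal transduction from the growth hormone receptor was followed in 12 genes, of which 11 were tested. Of these 1, Socs3, rose, beside 0.213% of all genes tested that passed in either direction. The median of the list was 0.13. Jak2, the kinase bound to the receptor, and Stat5b, the factor it activates, gave 0.09 ± 0.21 and -0.16 ± 0.15 (SE), with limma adjusted p of 0.913 and 0.759. Socs3, a feedback inhibitor of cytokine receptors, read 962.2 and 1161.0 in AB6F1, against 296.2 and 358.7 in B6AF1. Its log2 difference was 1.70 ± 0.19 (SE; limma adjusted p = 0.0262), a second probe set of suffix _x_at gave 1.47, and the one without that suffix gave 1.04, short of the threshold (limma adjusted p = 0.42). This call was also lost without the intensity trend (limma adjusted p = 0.352), without B6AF1 replicate 1 (0.33) and without B6AF1 replicate 2 (0.26).

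Cish and Socs2, which growth hormone pulses induce through STAT5, varied within both crosses. Cish read 1211.7 and 343.7 in AB6F1, against 477.8 and 168.5 in B6AF1, which gave 1.19 ± 0.66 on the log2 scale (SE; limma adjusted p = 0.615). Socs2 read 468.7 and 195.0 in AB6F1, against 410.0 and 217.7 in B6AF1, which gave 0.02 ± 0.46 on that scale (SE; limma adjusted p = 0.995). For both genes the mouse numbered 1 was the higher in each cross. The phosphatase Ptpn1 and the adaptor Sh2b1 gave 0.28 and 0.29, with limma adjusted p of 0.589 and 0.667.

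Receptors and intracellular transducers of IGF and insulin signals, 14 tested of 15, had a median of -0.11. None passed (1 lower at an unadjusted p below 0.05, beside 3.88% of all genes tested). That gene was Grb14, an adaptor that inhibits the insulin receptor, at 1933.6 and 2224.8 in AB6F1, against 2772.9 and 2941.7 in B6AF1 (log2 difference -0.46 ± 0.13, SE; limma adjusted p = 0.354). Irs1, a docking protein of both receptors, was at -0.30 ± 0.14 (SE; limma adjusted p = 0.544). In this list 6 tested genes, Grb14 and Irs1 among them, lay lower in AB6F1 without overlap, and 1 lay higher. Over all genes tested the shares were 18.7% and 22.5%. Grb10, an imprinted relative of Grb14, was at 0.57 ± 0.29 (SE; limma adjusted p = 0.584). Insr, the insulin receptor, stood at 0.01 ± 0.15, and Igf2r, the imprinted receptor that clears IGF-II, at -0.10 ± 0.14 (SE). Igf1r, the IGF-I receptor, which adult hepatocytes express little, read 111.9 and 21.6 in AB6F1, against 91.5 and 143.2 in B6AF1.

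The second ligand, Igf2, lay below the filter and was singled out after its values were seen. In the mouse it is imprinted, with the copy from the father expressed, and its expression in liver wanes after birth. The brighter of its 2 probe sets read 17.7 and 26.0 in AB6F1, against 128.7 and 184.2 in B6AF1. The crosses did not overlap there, and the log2 difference of -2.84 ± 0.66 (SE), from a fit with no filter, did not pass (limma adjusted p = 0.341). The other probe set read 10.4 and 11.6 in AB6F1, against 9.5 and 8.0 in B6AF1, with a log2 difference of the opposite sign, 0.33.

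Proteases that cleave binding proteins, with their inhibitors, had 6 tested of 10 genes and a median of 0.44. None passed (2 higher at an unadjusted p below 0.05, beside 5.84% of all genes tested). Stc2, a stanniocalcin that inhibits PAPP-A, read 217.1 and 153.3 in AB6F1, against 63.5 and 96.6 in B6AF1 (log2 difference 1.22 ± 0.41, SE; limma adjusted p = 0.421). Htra1, a serine protease that can degrade binding proteins, read 281.9 and 240.1 in AB6F1, against 147.3 and 157.8 in B6AF1 (log2 difference 0.77 ± 0.26, SE; limma adjusted p = 0.426). Both lay higher in AB6F1 without overlap, as did 22.5% of all genes tested. The lower B6AF1 signal of Stc2 was just above the filter signal of 60.9. Timp1 and Adam9, a metalloprotease inhibitor and a metalloprotease, gave 0.67 ± 0.77 and -0.10 ± 0.13 (SE). Pappa and Pappa2, the pappalysins, lay below the filter, with every signal at or under 52.5.

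Secreted proteins related to the binding proteins had 5 tested of 7 and a median of 0.37, and none passed (0 at an unadjusted p below 0.05). Crim1, Ccn1, Ccn2 and Kazald1 gave log2 differences of 0.37, -0.28, -0.40 and 0.38, with limma adjusted p from 0.601 to 0.831.

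**Figure D4:**
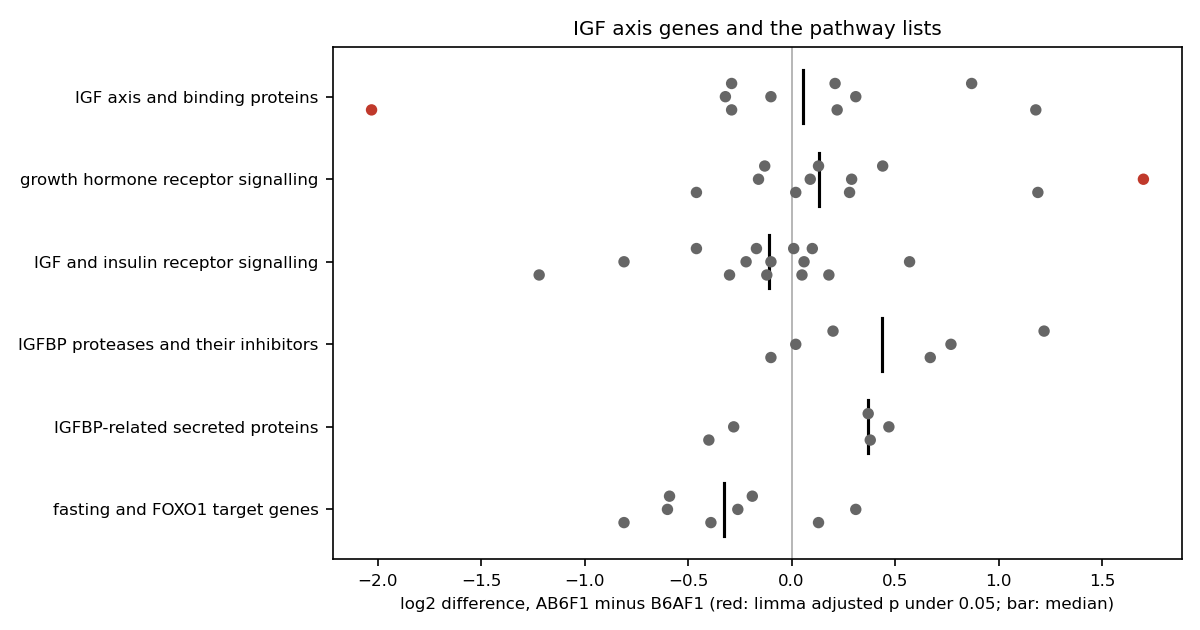
Log2 difference, AB6F1 minus B6AF1, of each tested gene, by list. Points are genes, red points have a limma adjusted p below 0.05, and black bars are list medians. Igfbp2 (-2.03) and Socs3 (1.70) are the red points.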

How the data were processed

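The values are deposited probe set intensities from 4 Affymetrix arrays, linear MAS5 signals per the submitters' processing notes, with the version not stated there. From the values, the authors' deposited intensities share a mean of 500.0 per array after 2% is trimmed from each end, so a change common to all transcripts would not be seen. At low signal MAS5 ratios vary widely. Neither detection calls nor scanner output entered the work.

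The table held 45101 probe sets: 64 controls, 34945 with 1 gene symbol, 932 with several and 9160 with none. Symbols were taken from RefSeq (GRCm38.p6) for the 34741 it matched. Of 18193 genes, 11748 had a mean log2 signal no lower than the probe set median, equal to 60.9. Log2 signal, without a pseudocount, was fitted with limma 3.58.1 in R 4.3.3 (lmFit, eBayes with intensity trend, two-sided, threshold 0.05). Residual degrees of freedom were 2, with 4.96 from the prior. The fit was run on simulated data drawn from its own fitted variances, which cannot show how it behaves on these signals. SE are moderated. Signals are arithmetic means, and folds are powers of the log2 difference. Alternatives were quantile normalization, median centring, 16 added to every signal, 2 other filters, no intensity trend, no suffix _x_at or _s_at, each probe set separately, the replicate block and each mouse left out.

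The genes, lists and motifs were chosen with earlier results of these data known. The text names all members, and from each pathway list the genes past the threshold and the 4 of smallest p. It also names the 3 profiles nearest to the member of widest range. Jak2, Stat5b, Socs2, Insr, Igf2r, Igf1r, Igf2, G6pc, Pdk4, Sesn1, Txnip, Pappa and Pappa2 were named after their values were seen.

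Replicate numbers mark different animals. Deviations of same-numbered mice correlated at -0.027 across genes, and the numbers were not taken as pairs.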

Additional observations from a re-analysis of the deposited data

How the results depend on the processing

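Of 129 values of the 10 genes under the alternatives, 120 were counted as the same direction and side of the threshold. A further 5 changed sign, and 11 were past the threshold, 10 of them Igfbp2. The other filters, no intensity trend, separate probe sets and the replicate block leave a member's log2 difference unchanged. Direction could not turn under those settings, so the count of 120 is not a measure of stability. It also holds Igfbp4 without suffix _x_at and _s_at, at 0, which has no direction. The 25 genes past the threshold became 50 with median centring, 62 with the replicate number as a block, where Igfbp2 remained the 1 member past it, and 0 without the intensity trend (1044 at an unadjusted p below 0.05); leaving out a mouse gave 1 to 241. The member count became 0 without the intensity trend (2 at an unadjusted p below 0.05) and 0 to 2 with a mouse left out. The count of pathway genes became 0 without the trend, 0 once suffixes _x_at and _s_at were dropped, and 0 to 5 with a mouse left out. The members' median of 0.06 was -0.08 with median centring (all genes -0.11), -0.10 with the filter at the 75th percentile, -0.13 without suffix _x_at and _s_at, and -0.28 to 0.08 with a mouse left out. Igfbp5 turned to -0.25 without suffix _x_at and _s_at. With a mouse left out, Igfbp1 ran from -0.24 to 1.97, Igfbp3 from -0.02 to 0.65, Igfbp5 from -0.33 to 0.76, Timp1 from -0.25 to 1.59 (-0.07 without AB6F1 replicate 2) and Adam9 from -0.21 to 0.01. The causes were not tested. A lone remaining mouse was assumed to vary like the other cross, and Igfbp6 had no value at the 75th percentile filter. Background correction and slide could not be varied from these signals, and without detection calls it is unknown which dim probe sets were above background.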

Other observations

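Other cell types that a liver slice could hold were read beside the members. All 8 tested macrophage markers of 9 had positive differences, beside 6284 of all 11748 genes tested. Their median was 0.80 and none passed the test (6 at an unadjusted p below 0.05, beside 5.84% of all genes higher). The crosses overlapped for Clec4f and Vsig4. The summed signal of the 9 markers was 14073.4 and 8895.2 in AB6F1, against 5783.0 and 7966.7 in B6AF1, without overlap. Csf1r, the brightest, gave 5405.7 and 3503.8 of it in AB6F1, and 2560.7 and 3300.4 in B6AF1. Cholangiocyte markers had 3 tested of 6 and a median of 0.42, and lymphocyte markers had 2 tested of 6 and a median of -0.15. No adipocyte marker of the 3 with a named probe set passed the filter, and 1 of 3 pancreatic acinar markers did, Cel, at 0.05. None of the markers of these 4 cell types passed the test (limma; 0 at an unadjusted p below 0.05).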
